A study of Mus musculus with 38 samples.

Results

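Polysome-bound RNA of the zygote was compared with that of the metaphase II (MII) oocyte, the pair of stages on either side of fertilization and meiotic exit. The comparison was made over 6 libraries of the polysome fraction, 3 of MII (replicates A, B and C) and 3 of zygote (replicates B, C and D), out of 38 samples in the series, of which 36 have a column of values. All cells came from ICR mice and carried no transgene or engineered allele. MII oocytes were fully grown oocytes taken at the germinal vesicle (GV) stage from females primed with pregnant mare serum gonadotropin, freed of cumulus cells and matured in culture in M16 medium. Zygotes were conceived in vivo, in females given the same gonadotropin and then human chorionic gonadotropin and mated overnight, and were recovered from the oviduct at pronuclear interphase without drug treatment. Maturation in culture and maturation in the animal therefore differ between the groups together with fertilization, and their contributions cannot be told apart. Cells were lysed after cycloheximide, which holds ribosomes on mRNA, and were spun through a sucrose gradient of 10 fractions. The 5 heavier fractions were pooled as polysomes and the 5 lighter ones as the non-polysome fraction. The series describes the libraries as biological triplicates and does not say whether they came from separate animals, so p-values measure the spread between these samples.

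The MII oocyte is held in metaphase by cytostatic factor activity, in which the kinase Mos drives the MAP kinase cascade and Emi2 (Fbxo43) inhibits the anaphase-promoting complex. Calcium release at fertilization removes that block, Cdc20 with the anaphase-promoting complex degrades cyclin B and securin, and the cell enters the first embryonic interphase with pronuclei. Transcription is largely silent across this transition, so the RNA on ribosomes is selected from a maternal store. One known route of selection is the cytoplasmic polyadenylation element (CPE), a U-rich motif near the polyadenylation signal of the 3′ UTR through which a stored mRNA gains a poly(A) tail and is loaded onto ribosomes.

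Libraries of the same stage resembled each other more than those of different stages. Pearson's r of the log2 FPKM (fragments per kilobase of transcript, scaled to library size) over 4882 genes was 0.924 to 0.927 between MII polysome libraries, 0.966 to 0.974 between zygote ones and 0.661 to 0.712 across stages. Depth, estimated from the FPKM that 1 fragment is worth in single-exon genes, was 19.3 to 21.2 M fragments in MII and 20.5 to 23.3 M in zygote (M, mega). Genes above 1 FPKM numbered 4686 to 4910 in MII and 4556 to 4630 in zygote (exact permutation test, two-sided p = 0.1, the smallest p that 3 against 3 allows). All 12 oocyte markers were above the 1 FPKM mean that a gene needed to be tested. Of 14 cumulus markers only Inha was, at 1.85, 0.626 and 4.48 FPKM in MII A, B and C against 0.0641, 0.0397 and 0.01 in zygote. The summed cumulus markers ranged from 1.03 to 4.92 FPKM in MII and from 0.394 to 0.565 in zygote, and Amh, Has2 and Tnfaip6 were at the lowest listed value, 0.01. Of 10 sperm markers 2 were tested (Prm2 and Odf2, neither past the test) and of 7 oviduct markers only Krt8 (log2 change −1.66, limma adjusted p = 0.00382; 0.834 when all 36 libraries of the series share 1 estimate of the spread), while none of 7 blood markers reached the minimum. The part of these cells in the results was not tested.

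Levels in the polysome fraction changed in many of the genes measured. On the deposited scale falls were both more frequent and larger than rises. Of 4882 genes tested, 2160 passed (44.2%) at a limma adjusted p below 0.05 and a change of more than 2-fold. In the zygote 1364 of them were lower (27.9%) and 796 higher (16.3%). Falls of more than 4-fold numbered 704 against 197 rises, and falls of more than 16-fold 119 against 21. The median change of all genes was −0.18 on the log2 scale, with a median SE of 0.27. Zygote values lay wholly below the MII values in 1856 genes (38%) and wholly above them in 1343 (27.5%). FPKM is a share of each library, so total polysomal RNA per cell was not seen, and fewer polysomes per cell and less RNA per polysome cannot be told apart. A gene low in one stage had to be high in the other to pass the minimum.

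The division between rises and falls depended on the scaling. The summed FPKM of a library was 119736 to 122158 in MII and 88982 to 96766 in zygote, without overlap. The part of this offset in the excess of falls was not tested. As deposited, 36.9% of calls were higher in zygote. After quantile normalization, which moved the median of all genes by 0.35, the share was 53.2% (1213 higher, 1065 lower). Centring each library on its median moved it by 0.32 and gave 51.9%. A larger limit was the estimate of the spread. When all 36 libraries shared 1 estimate, 283 falls and 77 rises were called, and of 134 called genes chosen by the naming rule 65 kept the call. For genes described below that lost it, that adjusted p is given.

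The largest falls among protein-coding genes averaging 10 FPKM or more took levels down by 36.4-fold to 193-fold. H2afx, which encodes the histone variant H2A.X of DNA damage signalling (chr9:44334694-44336077), had 1035, 883 and 654 FPKM in MII and 4.26, 4.21 and 4.67 in zygote. Its level fell by 7.59 ± 0.20 on the log2 scale (SE, 3 libraries a group), which is 193-fold, with a limma adjusted p of 1.49e-07. Groups that did not overlap were a condition of this ranking. Gstt2, a glutathione transferase, went from between 30.8 and 44.3 FPKM in MII to between 0.172 and 0.327. Upp1, the uridine phosphorylase of pyrimidine salvage, went from 30.3 to 33.4 down to 0.148 to 0.352, an estimated 3.5 to 9.49 fragments a library at the annotated transcript length. Fbxl6, an F-box protein, had 959, 1134 and 683 FPKM in MII and 10.8, 8.91 and 13 in zygote, a fall of 84.1-fold. Further genes among the 10 largest falls were Abhd17a (64.2-fold), Cdc20 (62.8-fold), the spliceosomal Sm protein gene Snrpd2 (60.6-fold), the ribosomal protein gene copy Rps27rt (66.2-fold) and the Mediator subunit gene Med29 (36.4-fold). All 10 kept their call with 36 libraries.

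The largest rises were smaller than the largest falls. Genes had to average 10 FPKM or more, which rises could reach through zygote values alone and falls through MII values alone. Pebp1, an inhibitor of Raf kinase signalling, had 2.84, 2.98 and 2.38 FPKM in MII and 48.5, 90.1 and 74.3 in zygote, a rise of 25.3-fold (log2 4.66 ± 0.25, limma adjusted p = 1.9e-06). Swi5, a recombination cofactor, rose 16.1-fold from 1, 1.63 and 1.13 FPKM to 18.3, 18.3 and 23. The glutathione transferase gene Gstm5 rose 15.1-fold, to between 60.9 and 90 FPKM, and the lactate dehydrogenase B gene Ldhb 12.1-fold, to between 354 and 416 FPKM. As for the falls, groups that did not overlap were a condition of the ranking. The other genes of the 10 largest rises among protein-coding genes were Eif4e1b (12.4-fold), Rnf5 (10.5-fold), Ifitm6 (9.63-fold), Bmp15 (9.45-fold), Rln3 (9.16-fold) and Cdc25b (8.05-fold). Rnf5, a ubiquitin ligase, and Cdc25b lost their calls with 36 libraries (adjusted p = 0.349 and 0.274), and the others kept theirs. Outside this ranking, the processed pseudogene Gm5514 rose by 3.85 on the log2 scale.

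**Figure D1:**
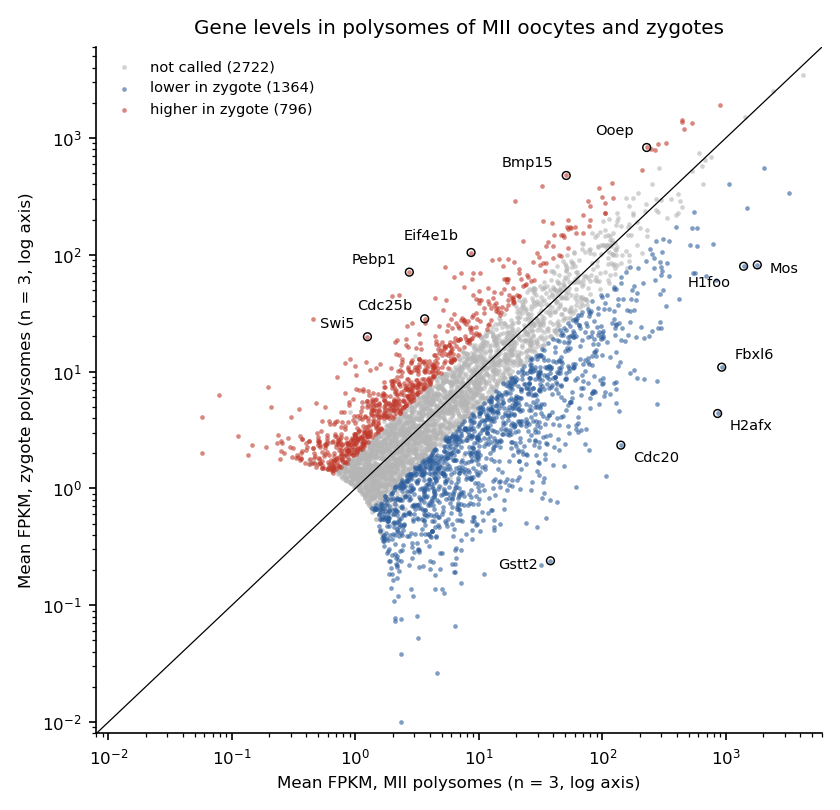
Mean FPKM of 3 zygote polysome libraries (vertical) against that of 3 MII libraries (horizontal), both on log axes, with 1 point for each of 4882 genes, coloured by call, and the line of equal levels. The 1364 lower genes reach farther from the line than the 796 higher ones, with H2afx, Gstt2 and Cdc20 among the farthest below it and Pebp1, Swi5 and Eif4e1b above it.

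The 3′ ends of several genes that fell hold a CPE within a few bases of the polyadenylation signal, and the following stretches of GRCm38 show these signals beside those of genes that were not called lower. Each is 30 bases of the transcript strand, with the CPE (TTTTAT or TTTTAAT) and the signal AATAAA in capitals. They are from Cdc20 (chr4:118432909-118432938, minus strand), Bub1b (chr2:118641562-118641591, plus), Fpgs (chr2:32682621-32682650, minus), Mcm2 (chr6:88883482-88883511, minus) and Omt2a (chr9:78312007-78312036, minus), which were called lower, and from Gdf9 (chr11:53437863-53437892, plus), Wee2 (chr6:40466765-40466794, plus) and Aurkb (chr11:69051625-69051654, plus), which were not.
Cdc20: ttaTTTTATtttttctAATAAAgttcgtat
Bub1b: gtaTTTTATAATAAAatagtttttgttaca
Fpgs: attTTTTATtttttgtaAATAAAtgacaaa
Mcm2: attTTTTAATagatttgAATAAAacctaaa
Omt2a: cggTTTTATAATAAAtaaaagtttcaggca
Gdf9: tggTTTTATgtgacggaagAATAAActgtt
Wee2: ataTTTTAATccagatcattgtaAATAAAg
Aurkb: acaTTTTATAATAAAgtcttaaatgtttca
The element and the signal run on directly in Bub1b and Omt2a, which fell, and equally in Aurkb, which rose. A match to these letters is a description of the sequence and not a measured site of binding.

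Genes of the arrest at metaphase II included both rises and falls. Of 12 tested members of the cytostatic factor list (23 in the table), 3 were lower in zygote (25%, against 27.9% of all genes) and 2 higher (16.7%, against 16.3%), shares near those of all genes. The median log2 change of −0.05 became 0.30 after quantile normalization, 0.28 after centring, and 0.01 and 0.12 without MII A or C. Without MII B it was −0.35. Mos, the kinase at the head of the arrest (chr4:3870657-3872105), had 1442, 2021 and 1926 FPKM in MII and 70.6, 87.9 and 87 in zygote. It fell by 4.45 ± 0.18 on the log2 scale, or 21.8-fold, with a limma adjusted p of 8.93e-07 (0.059 with 36 libraries). Mos was far above all other members in MII, so the summed level of the list followed it, from between 1659 and 2170 FPKM in MII to between 379 and 405. Fbxo43, which encodes Emi2, went from 5.33, 6.1 and 1.92 FPKM to 1.15, 1.51 and 1.44 (log2 −1.55, adjusted p = 0.0104; 0.458 with 36 libraries). Map2k1, the MAP kinase kinase below Mos, fell by 1.51 (0.751 with 36 libraries). The MAP kinase itself moved the other way. Mapk3 had 34.3, 25.3 and 28.5 FPKM in MII and 108, 101 and 100 in zygote, a rise of 3.53-fold (limma adjusted p = 2.92e-05; 0.35 with 36 libraries). Skp1a, a subunit of the SCF ligase that removes Emi2, rose 3.43-fold and kept its call with 36 libraries. The Polo kinase gene Plk1 had 111, 81.2 and 144 FPKM in MII and 108, 99.2 and 108 in zygote, and its groups overlapped.

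Cyclin B1 mRNA did not pass the test in polysomes, while regulators of its kinase did. Ccnb1 had 122, 108 and 132 FPKM in MII and 121, 86.6 and 97 in zygote (log2 −0.26 ± 0.18, adjusted p = 0.258), and the groups overlapped. Of 13 tested members of the Cdk1 and cyclin list (26 in the table), 3 were higher and 3 lower (23.1% each, against 16.3% and 27.9% of all genes). The median log2 change of −0.08 turned positive under both other scalings and without MII A (0.01). Without MII B or C it was −0.20 and −0.16. Cdc25b, the phosphatase that activates Cdk1, had 5.06, 3.25 and 2.6 FPKM in MII and 30.8, 29 and 25.1 in zygote, a rise of 8.05-fold (limma adjusted p = 1.36e-05; 0.274 with 36 libraries). Cdk1 rose 4.27-fold, from 2.49, 1.63 and 3 FPKM to 8.56, 9.73 and 11.4, and kept its call with 36 libraries but not with the 18 polysome libraries (adjusted p = 0.0513). Ensa, which on phosphorylation inhibits the phosphatase PP2A-B55, rose 4.40-fold (0.449 with 36 libraries). Cks1b and Cks2, small subunits that bind Cdk1, fell by 2.05 and 1.73 on the log2 scale and both kept their calls. Pkmyt1, a kinase that inhibits Cdk1, fell by 1.26 (0.739 with 36 libraries). Wee2, the oocyte kinase of the same function and a carrier of the CPE printed above, did not pass the test, at 12.5, 8.73 and 6.01 FPKM in MII and 8.56, 10.5 and 9.09 in zygote.

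In polysomes the mRNA of Cdc20, the activator of the anaphase-promoting complex, fell and that of its substrate securin rose. Cdc20 (chr4:118432901-118437352) had 130, 136 and 157 FPKM in the MII libraries and 2.02, 3.37 and 1.65 in the zygote libraries. Its change was −5.97 ± 0.27 (SE) on the log2 scale with a limma adjusted p of 1.02e-06, and no zygote library came near an MII one. Bub1b, which encodes the checkpoint kinase BubR1, had 20, 17.7 and 6.94 FPKM in MII and 0.467, 0.452 and 0.571 in zygote, a fall of 27.3-fold. Both genes kept the call with 36 libraries. Mad2l1bp, a protein that takes apart the checkpoint complex, fell by 2.53 (0.115 with 36 libraries), the separase gene Espl1 by 1.54 (0.588) and the checkpoint gene Mad2l1 by 1.51 (0.412). Pttg1, securin, had 51, 55.1 and 51.4 FPKM in MII and 259, 105 and 232 in zygote, a rise of 3.52-fold that held with 36 libraries although zygote C was less than all others of its group. Ube2c, the ubiquitin-conjugating enzyme of the complex, rose 3.27-fold and its subunit gene Anapc11 2.85-fold (0.0654 and 0.0756 with 36 libraries). Of the 19 tested members of this list (28 in the table), 5 were lower (26.3%, against 27.9% of all genes) and 4 higher (21.1%, against 16.3%), with a median of 0.16. After quantile normalization 7 were higher and the median was 0.45. Without MII A the median was 0.03, and with the replicate letter as a block it was −0.01. With 36 libraries 2 falls and 1 rise were kept.

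Spindle and kinetochore genes changed in both directions. Of 20 tested (46 in the table), 8 were lower (40%, against 27.9% of all genes) and 4 higher (20%, against 16.3%), and the median was −0.89, or −0.56 and −0.57 under quantile normalization and centring. With 36 libraries 2 falls and 1 rise were kept. Kif20a, the kinesin Mklp2 of the central spindle, had 17.3, 8.21 and 13 FPKM in MII and 1.09, 0.584 and 0.302 in zygote (fall of 21.2-fold, adjusted p = 4.35e-05; 0.192 with 36 libraries). The gene overlaps Cdc23 on the opposite strand over 2327 bases, and the sources do not state that strand was used in counting. Spc24, of the Ndc80 kinetochore complex, went from between 31.4 and 36.5 FPKM to between 3.22 and 3.77, and Cenpa, the centromeric histone H3, from between 10.5 and 19.3 to between 2.49 and 2.68. Both kept their calls with 36 libraries. Prc1, which bundles central spindle microtubules, fell by 2.29, Cenpt by 1.91 and the passenger subunit Cdca8 by 1.73 on the log2 scale, and all 3 lost their calls with 36 libraries (adjusted p of 0.0665, 0.859 and 0.608). Among other passenger genes Birc5 (survivin) rose 3.12-fold to between 157 and 196 FPKM and the kinase gene Aurkb 2.63-fold to between 9.27 and 12.2, while the kinase gene Aurkc was not called (log2 −0.91). The kinetochore gene Zwint rose 3.39-fold and the kinesin gene Kifc1 by 1.03 on the log2 scale, and neither kept its call with 36 libraries (adjusted p of 0.718 and 0.970). With 36 libraries Birc5 kept its call and Aurkb did not (adjusted p = 0.957).

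The zona genes Zp1 and Zp3 fell in polysomes, and Zp2 was not called. The zona pellucida is the glycoprotein coat that binds sperm, and its synthesis belongs to oocyte growth. Zp1 had 333, 239 and 309 FPKM in MII and 51.7, 38 and 47.8 in zygote, a fall of 6.4-fold (limma adjusted p = 6.1e-06) that held with 36 libraries. Zp3, the sperm receptor component, had 295, 262 and 247 FPKM and then 54.6, 59.2 and 68.2, a fall of 4.42-fold (0.186 with 36 libraries). Zp2 did not reach the 2-fold limit, at 18.2, 7.41 and 16.1 against 6.55, 6.4 and 7.05 FPKM (log2 −0.96), although the groups did not overlap. Orai1, a calcium channel of the plasma membrane, fell by 1.55 and kept its call. The sperm receptor gene Izumo1r (Juno) was at 60.7, 55.2 and 54.7 FPKM and then at 75.5, 94.5 and 87.1 (log2 0.59), and Astl, the protease that hardens the zona, at 31.8 to 45.2 and then 46.3 to 55.7 FPKM. Neither passed the 2-fold limit. Cd9, the tetraspanin of gamete fusion, rose 3.14-fold (0.763 with 36 libraries). It was the one rise among the 8 tested (14 in the table; 12.5%, against 16.3% of all genes), and 3 were lower (37.5%, against 27.9%). Quantile normalization gave 2 in each direction, and with 36 libraries 2 falls were kept.

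Genes of oocyte-secreted factors and oocyte-restricted families were mostly lower. Of 24 tested (30 in the table) 16 were lower (66.7%, against 27.9% of all genes) and 3 higher (12.5%, against 16.3%), and the median was −1.65 against −0.18 for all genes. Quantile normalization gave 12 lower and 5 higher, and with 36 libraries 7 falls and 1 rise were kept. Outside polysomes 6 of them were lower (25%, against 16.5% of all genes there), 1 was higher (4.17%, against 8.38%) and the median was −0.37. The secreted growth factors of the list parted. Bmp15 (chrX:6314107-6320721) had 51.1, 59.6 and 42.2 FPKM in MII and 489, 467 and 475 in zygote, a rise of 9.45-fold (limma adjusted p = 1.9e-06) that held with 36 libraries. Its partner Gdf9, with 386, 379 and 473 FPKM in MII and 364, 304 and 329 in zygote, was not called although its groups did not overlap, and its change of −0.31 turned to 0.052 and 0.013 under the other scalings. Fgf8 fell by 3.47 on the log2 scale (0.176 with 36 libraries). Omt2b, an oocyte maturation gene, had 404, 1423 and 646 FPKM in MII and 63.6, 56.6 and 61.4 in zygote, and Omt2a 163, 507 and 228 and then 26, 20.2 and 24.5. The 30 bases of the 3′ end printed for Omt2a are the same in Omt2b. Reads of these near-identical genes may be split uncertainly, as for the Tcl1b family. Tcl1b1 had 212, 399 and 232 FPKM in MII and 25.3, 22.9 and 22.6 in zygote (fall of 11.4-fold), and Tcl1 and Tcl1b2 to Tcl1b5 fell by 2.43 to 3.08, of which Tcl1b3 and Tcl1b5 lost their calls with 36 libraries (0.397 and 0.217). The transcription factor gene Lhx8 rose 2.31-fold (0.916 with 36 libraries), while Nobox changed by 0.40 and was not called.

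The subcortical maternal complex, a structure at the oocyte cortex that the embryo needs for its first divisions, had subunit mRNAs that moved in either direction. Khdc3 (Filia) had 378, 460 and 418 FPKM in MII and 43.8, 39 and 41.7 in zygote, a fall of 10.1-fold (adjusted p = 1.18e-06; 0.303 with 36 libraries). Tle6 went from between 291 and 486 FPKM to between 157 and 190 (0.789 with 36 libraries). Ooep had 169, 231 and 284 FPKM in MII and 669, 847 and 969 in zygote, a rise of 3.67-fold that held with 36 libraries. Padi6 rose 2.33-fold, but without MII B and with 36 libraries (0.622) its call was lost, and Nlrp9c rose 6.2-fold from under 1 FPKM (0.0782 with 36 libraries). Nlrp5 (Mater) was not called, with 1.97, 0.791 and 0.549 FPKM in MII and 1.89, 1.8 and 1.63 in zygote. Of 12 tested (18 in the table) 3 were higher (25%, against 16.3% of all genes) and 2 lower (16.7%, against 27.9%). The median was 0.28, but −0.02 without MII C and 0.66 after quantile normalization, and 5 were higher without MII A. The summed level was 1640 to 2064 FPKM in MII and 1837 to 2134 in zygote, with overlap.

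Storage and polyadenylation factors mask maternal mRNAs or lengthen their tails. Of 17 tested (35 in the table) 5 were higher (29.4%, against 16.3% of all genes), 1 was lower (5.88%, against 27.9%) and the median was 0.54. Quantile normalization and centring gave 7 and 8 higher, none lower and a median of 0.86, and without MII B 3 were higher and none lower. Eif4e1b, the oocyte cap-binding protein, had 9.71, 6.22 and 10 FPKM in MII and 100, 104 and 109 in zygote, a rise of 12.4-fold (limma adjusted p = 2.27e-06), and was the one rise kept with 36 libraries, though not with the 18 polysome libraries (adjusted p = 0.0521). The others were the RNA-binding protein genes Dazl (2.83-fold; 0.75 with 36 libraries) and Lsm14b (2.89-fold; 0.542), the poly(A)-binding Pabpc1l (log2 1.12; 0.872) and the masking protein gene Ybx2 (2.06-fold; 0.917), whose call was lost without MII B or zygote D. Cpeb1, the protein that binds the CPE, fell by 1.22 on the log2 scale, from 3.85, 6.1 and 3.74 FPKM to 2.1, 1.95 and 1.71, and lost its call without MII B and with 36 libraries (0.839). Zar1 had 330, 333 and 337 FPKM in MII and 225, 186 and 213 in zygote (log2 −0.68), below the 2-fold limit.

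Deadenylases, decapping enzymes and exosome subunits, which remove maternal mRNA, divided between directions. Of 23 tested (49 in the table) 8 were lower (34.8%, against 27.9% of all genes) and 6 higher (26.1%, against 16.3%). The median of −0.15 turned to 0.07 and 0.17 under the other scalings, which both gave 7 lower and 8 higher. When 1 library was left out the median ranged from −0.38 (without MII C) to −0.06 (without zygote B). With 36 libraries 1 fall and no rise were kept. The falls included exosome subunits. Exosc4 had 206, 219 and 113 FPKM in MII and 10.5, 10.5 and 10.2 in zygote (16.5-fold; adjusted p = 0.0596 with 36 libraries), and Exosc5 22.4, 21.6 and 11.5 and then 0.922, 1.09 and 1.15 (16.9-fold, kept). Exosc7 fell by 2.24 and the deadenylase gene Cnot8 by 2.21, with adjusted p of 0.822 and 0.0954 with 36 libraries. Rises included Zfp36l2, a protein that marks AU-rich mRNAs for decay (1.25, 1.3 and 1.42 FPKM and then 8.3, 12.3 and 10.4), the decapping enzyme gene Dcp2 (3.98-fold) and the adaptor gene Tob2 (3.52-fold), at adjusted p of 0.238, 0.296 and 0.735 with 36 libraries. Btg4, the adaptor that brings the CCR4-NOT deadenylase to maternal mRNA, overlapped between groups at 19.7, 31.5 and 11 FPKM in MII and 13.5, 13.1 and 13.2 in zygote. Its change of −0.51 became 0.043 after quantile normalization.

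H1foo, the oocyte linker histone (chr6:115944938-115950236), had 1308, 1021 and 1845 FPKM in MII and 68.6, 85.9 and 84.6 in zygote, a fall of 17-fold (limma adjusted p = 1.98e-06) that held with 36 libraries. Npm2, the chaperone that unpacks sperm chromatin, moved the other way, from 3.1, 2.3 and 1.64 FPKM to 9.84, 11.9 and 12.3 (4.97-fold, kept). Among the 18 tested histone variants and chaperones (29 in the table) 7 were lower (38.9%, against 27.9% of all genes), Npm2 alone was higher (5.56%, against 16.3%) and the median was −0.60. Under quantile normalization and centring 3 and 2 were higher, 6 lower, and the median was −0.30 and −0.28. Without MII A or C 2 were higher, and the median was −0.48 and −0.92. With 36 libraries 4 falls and 1 rise were kept. H2afx, described above, H2afj (6.51-fold) and H2afz (2.87-fold; 0.0909 with 36 libraries) were among the falls. The summed level of the list went from between 2291 and 2807 FPKM to between 277 and 322, of which H2afx and H1foo made up the greater part in MII. Slbp, which binds the stem-loop of histone mRNAs, was not called (log2 0.36).

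Among genes of DNA methylation and pronuclear reprogramming, 4 of 11 tested (31 in the table) were higher (36.4%, against 16.3% of all genes) and 1 was lower (9.09%, against 27.9%). The median of 0.16 turned to −0.44 without MII C and was 0.74 without MII A. The summed level was 122 to 142 FPKM in MII and 372 to 439 in zygote. Zfp57, which guards imprints, had 38.9, 33.2 and 44.3 FPKM in MII and 185, 177 and 203 in zygote, a rise of 4.88-fold. Dppa3 (Stella), which shields the maternal genome, had 45.4, 45 and 53.8 FPKM and then 142, 131 and 168, a rise of 3.05-fold. Both kept their calls with 36 libraries, and Zfp57 lost it with the 18 polysome libraries (adjusted p = 0.0841). Tet3, the dioxygenase of the paternal pronucleus, rose 4.29-fold from 1.87, 1.19 and 0.76 FPKM to 4.8, 5.15 and 5.45 (0.0503 with 36 libraries). Dnmt3l, a cofactor of de novo methylation, rose by 1.05 on the log2 scale (0.917). Trim28, the corepressor that acts with Zfp57, went the other way, from 2.68, 3.03 and 2.93 FPKM to 0.391, 0.371 and 0.262 (0.218 with 36 libraries). Uhrf1 (log2 0.96) and Dnmt1 (log2 −0.69) were within the 2-fold limit.

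Of 34 DNA replication genes tested (50 in the table) 13 were lower (38.2%, against 27.9% of all genes) and 3 higher (8.82%, against 16.3%), and the median was −0.63. Quantile normalization gave 11 lower, 6 higher and a median of −0.18, and centring 11, 5 and −0.31. With 36 libraries 2 falls and no rise were kept. Mcm2, of the replicative helicase, had 7.03, 7.4 and 7.13 FPKM in MII and 1.23, 0.543 and 1.01 in zygote (8.21-fold; 0.132 with 36 libraries). Pold1, the catalytic subunit of DNA polymerase delta, had 9.25, 6.27 and 3.55 FPKM and then 0.242, 0.14 and 0.191 (31.6-fold; 0.0503), and Tyms, thymidylate synthase, fell by 3.82 (0.16). Gmnn (geminin), which blocks a second round of licensing, fell by 2.54 (0.0819), whereas the licensing factor genes Cdt1 (log2 0.34) and Cdc6 (log2 0.46) were not called. The helicase subunit gene Mcm3 rose 2.07-fold and lost its call without MII A or zygote B and with 36 libraries (0.952). Pcna, the sliding clamp, had 3.46, 2.29 and 2.58 FPKM in MII and 2.32, 2.42 and 3.14 in zygote.

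Of 16 tested regulators of genome activation (44 in the table) 4 were lower (25%, against 27.9% of all genes) and 2 higher (12.5%, against 16.3%), shares near those of all genes. The median of −0.01 became positive under both other scalings and without MII A or zygote C. Obox5, a homeobox gene, had 66.6, 57.2 and 40.4 FPKM in MII and 6.05, 5.31 and 5.05 in zygote, a fall of 9.83-fold (limma adjusted p = 4.12e-06), and Obox1 and Obox2 fell by 2.65 and 2.55. These calls held with 36 libraries, though reads of Obox1 and Obox2 may be split uncertainly. Nfya, a subunit of the CCAAT-binding factor, rose 6.63-fold, from 1.92, 2.44 and 2.04 FPKM to 15.3, 13.3 and 13.7 (0.17 with 36 libraries). Klf17 rose 3.15-fold to between 279 and 361 FPKM and kept its call.

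Most ribosomal protein mRNAs were lower in zygote polysomes. Of 64 cytosolic ribosomal protein genes tested (85 in the table) 54 were lower (84.4%, against 27.9% of all genes), 1 was higher (1.56%, against 16.3%) and 9 were not called. Their median change was −2.62, against −0.18 over all genes, and −2.32 and −2.30 under the other scalings. The summed level of the list was 1448 to 1590 FPKM in MII and 258 to 309 in zygote, and with 36 libraries 41 members were still called lower. Rps19 had 5.66, 6.75 and 6.78 FPKM in MII and 0.0871, 0.0511 and 0.0623 in zygote, which is an estimated 0.810 to 1.51 fragments a library, so no fold is given. Rps27rt (66.2-fold) and Rpsa (48.6-fold) rest on an estimated 2.08 to 10.01 and 3.89 to 9.14 fragments in zygote. The rise was in Rpl7l1, a paralog (2.09-fold), and it was lost without MII A and with 36 libraries (0.917). Outside polysomes 54 members were lower (84.4%, against 16.5% of all genes there) and none higher (against 8.38%), with a median of −2.33 against 0.01. Ribosomal protein genes have many near-identical pseudogenes, so single values are uncertain.

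Ribosomal protein mRNAs are known for a 5′ terminal oligopyrimidine tract, a C followed by a run of pyrimidines that links their translation to mTOR signalling. Start windows of 30 bases in the RefSeq annotation of GRCm38.p6, from 10 bases before the annotated first base, are shown for the 4 genes with the longest runs that begin at that base, chosen after their values were seen, with the run in capitals. They lie at chr14:18270967-18270996 (Rpl15), chr2:39005112-39005141 (Rpl35), chr17:27635225-27635254 (Rps10) and chr4:86857348-86857377 (Rps6), all on the minus strand.
Rpl15: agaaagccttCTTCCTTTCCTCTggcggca
Rpl35: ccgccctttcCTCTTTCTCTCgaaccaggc
Rps10: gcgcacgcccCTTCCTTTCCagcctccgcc
Rps6: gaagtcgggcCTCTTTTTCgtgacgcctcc
Rpl15 went from 24.1, 20.3 and 28 FPKM in MII to 4.28, 2.82 and 3.22 in zygote (7.06-fold). Rpl35 and Rps10 fell 5.39-fold and 6.34-fold. Rps6 carries a run as clear as theirs and was not called, at 3.57, 2.1 and 5.26 FPKM against 2.77, 2.93 and 2.96, with overlap between the groups. A run of 6 or more pyrimidines led by a C, starting within 10 bases of the annotated start, was found on the transcript strand in 27 of 48 ribosomal protein genes with a promoter entry (56.3%). It was found in 22.6% of all tested genes, in 21.9% of all 27025 promoters in the table, and in 25% of mitochondrial ribosomal protein genes. Genes lower in polysomes held it in 23.4% and genes higher in 25.1%. These shares describe the annotated starts, which may differ from those used in oocytes.

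Of 68 nuclear-encoded oxidative phosphorylation genes tested (84 in the table) 42 were lower (61.8%, against 27.9% of all genes) and 5 higher (7.35%, against 16.3%), with a median of −1.51. In the non-polysome fraction 43 were lower (63.2%, against 16.5% of all genes there) and 1 higher (1.47%, against 8.38%), with a median of −1.58. Within polysomes quantile normalization gave 34 lower, 5 higher and a median of −1.10, and centring 35, 5 and −1.18. Ndufa11, of complex I, had 83.6, 90.6 and 58.2 FPKM in MII and 1.88, 2.09 and 2.37 in zygote, and Uqcrq, of complex III, 220, 252 and 177 and then 7.08, 8.35 and 10.3 (25.2-fold). Both kept their calls with 36 libraries, as 15 falls of the list did. Ndufa4, a subunit of cytochrome oxidase, was the largest rise (6.30-fold, kept), from 0.664, 1.22 and 0.783 FPKM to 4.58, 4.91 and 7.02. Among 62 mitochondrial ribosomal protein genes tested (78 in the table) 32 were lower (51.6%, against 27.9%), led by Mrpl14 (27.5-fold). Of them 1, Mrpl45, was higher (1.61%, against 16.3% of all genes). It rose 3.11-fold (limma adjusted p = 0.774 with 36 libraries). Under quantile normalization 24 were lower and 6 higher, with a median of −0.62. Their median was −1.05, and 4 falls were kept with 36 libraries. Outside polysomes 23 of these genes were lower (37.1%, against 16.5% of all genes there) and none higher, with a median of −0.86.

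Of 34 proteasome genes tested (47 in the table) 13 were lower (38.2%, against 27.9% of all genes) and 1 was higher (2.94%, against 16.3%), with a median of −0.33. After quantile normalization 5 were higher and the median was −0.09, and after centring it was −0.0050. Outside polysomes 12 were lower (35.3%, against 16.5% of all genes there) and none higher, with a median of −0.49. With 36 libraries 5 falls and no rise in polysomes were kept. The falls included subunits of the beta rings of the core. Psmb6 had 265, 344 and 216 FPKM in MII and 8.1, 7.48 and 9.41 in zygote (32.6-fold), and Psmb3 38, 50.9 and 31.8 and then 2.69, 1.56 and 2.49 (18.1-fold), both kept with 36 libraries. The rise, Psmd11 (2.06-fold), was lost without MII A, zygote B or zygote D and with 36 libraries (0.871). In the ubiquitin, F-box and autophagy list 11 of 34 tested were lower (32.4%, against 27.9% of all genes) and 4 higher (11.8%, against 16.3%). Both other scalings gave 6 lower and 8 higher and turned the median of −0.23 positive. Lower calls numbered 7 without MII C and 12 without MII B. The median was −0.44 without MII B and −0.13 without zygote B. With 36 libraries 3 falls were kept. Of 23 RNA polymerase II and TFIID genes tested (41 in the table) 13 were lower (56.5%, against 27.9% of all genes) and 2 higher (8.70%, against 16.3%), with a median of −1.05, and 6 falls were kept with 36 libraries. Polr2i had 114, 134 and 99.6 FPKM in MII and 6.1, 4.75 and 8.56 in zygote (18.3-fold), and Polr2c 16.9, 23 and 23.5 and then 1.87, 1.63 and 1.69 (12.1-fold).

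Translation factors were lower in 11 of 35 tested (60 in the table), a share of 31.4% that is near the 27.9% of all genes. They were higher in 2 (5.71%, against 16.3%), and the median was −0.62. With 36 libraries 4 falls and 1 rise were kept, and with the 18 polysome libraries 7 were lower and none higher. Quantile normalization gave 8 lower, 3 higher and a median of −0.30, and centring 10, 4 and −0.30. The falls were led by subunits of initiation factor eIF3, Eif3k with 22.3, 26.5 and 24.2 FPKM in MII and 3.12, 3.76 and 4.2 in zygote (6.63-fold, kept with 36 libraries), Eif3l (6.62-fold; 0.652) and Eif3g (6-fold; 0.206). Beside Eif4e1b the rise was in Eif1b (3.79-fold; 0.0805), from 73.4, 67.5 and 89.9 FPKM to 257, 307 and 308. Of 20 chaperonin and aminoacyl-tRNA synthetase genes tested 4 were lower (20%, against 27.9% of all genes) and none was higher (against 16.3%). Their median of −0.19 turned positive under the other scalings, and no call was kept with 36 libraries. Cct5, of the chaperonin, had 98.6, 51.2 and 97.5 FPKM in MII and 12.6, 13.9 and 14.1 in zygote (0.666 with 36 libraries), whereas Cct2 (log2 0.40), Cct3 (log2 0.44), Cct4, Cct7 and Cct8 (log2 −0.32) were not called. Replication-dependent histone mRNAs lack a poly(A) tail and are caught poorly by oligo-dT priming. They were lower in 15 of 31 tested (48.4%, against 27.9% of all genes) and higher in none (against 16.3%), with a median of −0.68. Without MII B 10 were lower, both other scalings gave 3 higher, and with 36 libraries 1 fall was kept. Hist1h3c was at 1.57, 4.57 and 0.853 FPKM in MII and listed at 0.01 in all zygote libraries, and its call was lost without MII B and with 36 libraries (0.0687).

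**Figure D2:**
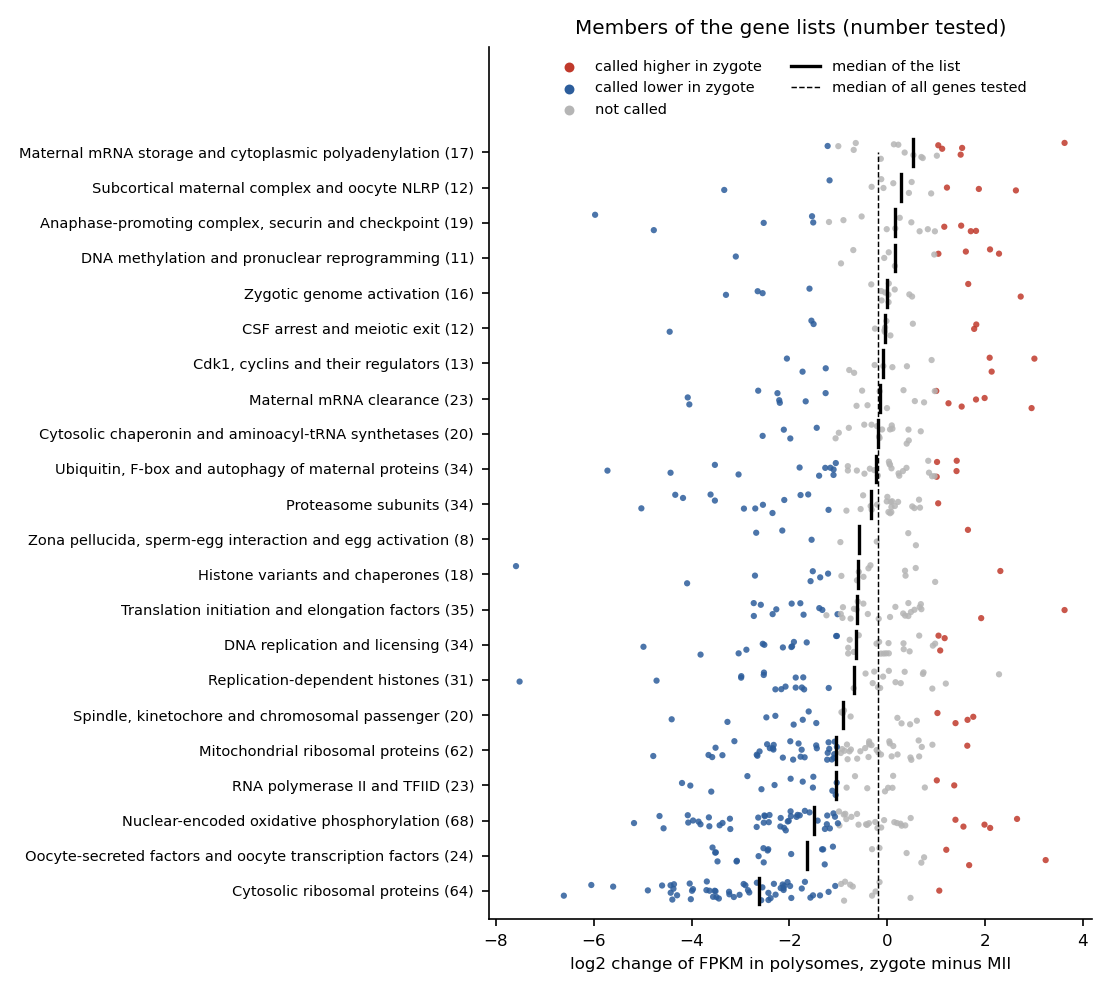
Log2 change of every tested gene by list, zygote minus MII in polysomes, with 1 point a gene and a bar at each list's median, and the median of all genes (−0.18) as a dashed line. Cytosolic ribosomal proteins (median −2.62), oocyte-secreted factors (−1.65) and oxidative phosphorylation (−1.51) lie farthest below it.

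The same contrast outside polysomes was used to ask how far a change in polysomes went with the change in the non-polysome fraction. The 5 lighter fractions were pooled, so RNA on ribosomes there was not told apart from free RNA. In the non-polysome fraction 1215 of the same 4882 genes were called (24.9%), 806 lower (16.5%) and 409 higher (8.38%), with a median change of 0.01. Quantile normalization gave 688 lower and 603 higher, and centring 701 and 541. Without zygote non-polysome B, C or D 218 to 257 were higher. With 36 libraries 152 were lower and 66 higher, and with the replicate letter as a block 344 and 76. Of the genes lower in polysomes, 704 (51.6%) were also called lower outside them, and of those higher, 265 (33.3%) were also higher. A single gene had opposite calls. Across genes, which are not independent replicates, Pearson's r of the changes was 0.734. A test of the difference of the changes called 303 genes (6.21%), 246 with a lower change in polysomes (5.04%) and 57 with a higher one (1.17%). Under quantile normalization these were 254 and 154, and under centring 158 and 81. Without 1 of the zygote polysome libraries (B, C or D) they were 117 to 145 and 19 to 27, without zygote non-polysome B or D 158 to 163 and 31 to 34, and without MII polysome A 163 were lower. With the replicate letter within a stage as a block, which pairs the fractions of a sample if letters mark samples, 167 had a lower and 32 a higher difference. Of the 1364 falls 184 carried a lower difference, and of the 796 rises 43 a higher one. The non-polysome replicates agreed less well, with r from 0.796 to 0.890 within a stage.

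Several genes fell on both sides of the gradient by a like amount. Mos changed by −4.45 in polysomes and −4.48 outside them, where it had 1333, 1672 and 2279 FPKM in MII and 76.2, 71.9 and 84.1 in zygote. Upp1 (−7.28 and −7.44), Ndufa11 (−5.18 and −5.19), Zp1 (−2.68 and −2.67), Khdc3 (−3.33 and −3.15) and Eif4e1b (3.63 and 4.07) also moved alike, and none of them passed the test of the difference. Zp2 changed by −3.0 outside polysomes and by −0.96 in them.

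Other genes fell by more in polysomes than outside. Cdc20 had 100, 117 and 121 FPKM outside polysomes in MII and 34, 47.2 and 43 in zygote, a change of −1.45 against −5.97 in polysomes. The difference of −4.52 had a limma adjusted p of 0.000145. Obox5 had 132, 75 and 73.5 FPKM outside polysomes in MII and 75.9, 99.5 and 60.9 in zygote, overlapping groups, so that its changes were −0.22 and −3.30 (difference −3.08, adjusted p = 0.00148). Rbbp7, a histone-binding subunit of chromatin complexes, went from 20.9, 19.2 and 14.5 FPKM to 2.8, 1.82 and 2.08 in polysomes, and outside them from 15.6, 14.5 and 10.4 to 16.3, 16.9 and 11.4. Its call in polysomes ended with 36 libraries (adjusted p = 0.0526). Fpgs, folylpolyglutamate synthase, fell by 4.36 in polysomes and by 0.72 outside, and Stoml2, of the mitochondrial inner membrane, by 4.97 and 1.38. The polysome call of Stoml2 was lost with the 18 polysome libraries (adjusted p = 0.0544). Polr2c (−3.60 and −0.89), Psmb3 (−4.17 and −1.38), Mad2l1bp (−2.53 and 0.01) and Kif20a (−4.41 and −0.42) showed the same form. Polr2c overlaps Dok4 on the opposite strand over 9708 bases. Mcm2 changed by −3.04 and −0.04, but its non-polysome values spread from 0.559 to 4.18 FPKM in MII and the difference was not called.

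**Figure D3:**
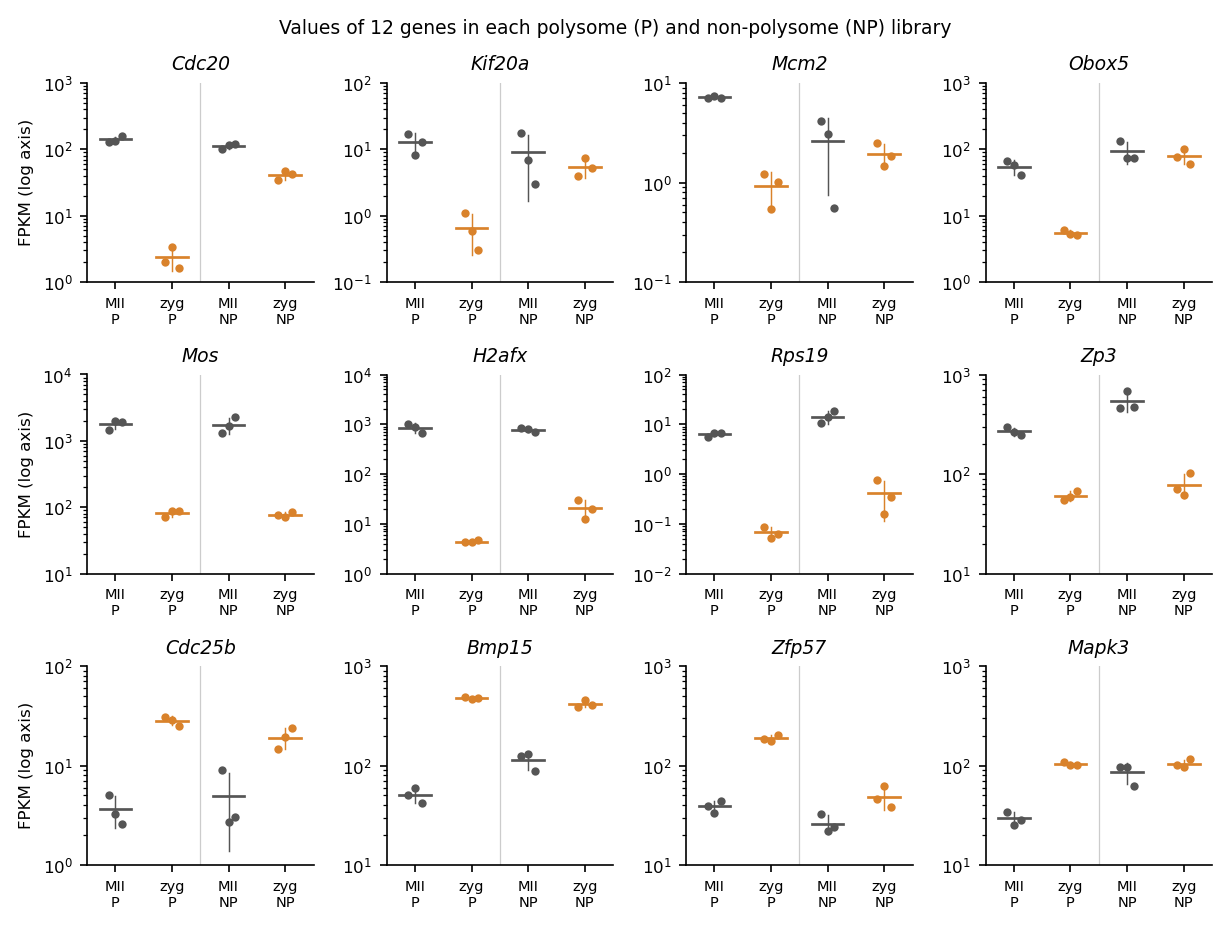
FPKM of 12 genes on log axes in each polysome (P) and non-polysome (NP) library, with the mean as a horizontal bar and the SD as a vertical line (3 libraries a group, MII grey, zygote orange). Cdc20, Kif20a and Obox5 are far lower in zygote polysomes than outside them, Mcm2 has 0.543 to 1.23 FPKM in zygote polysomes and 1.46 to 2.48 outside, while Mos and Zp3 drop in both fractions and Mapk3 is lower in MII polysomes alone.

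Fewer genes gained in polysomes beyond their gain outside. Mapk3 had 97.2, 97 and 61.8 FPKM outside polysomes in MII and 101, 96.8 and 116 in zygote, overlapping groups, beside its 3.53-fold rise in polysomes (difference 1.5, adjusted p = 0.0101). Bmp15 changed by 1.88 outside and 3.24 in polysomes, Zfp57 by 0.89 and 2.29, Birc5 by 0.39 and 1.64, and Gstm5 by 1.58 and 3.91, and each difference was called. With all 36 libraries the difference test called 3 genes lower and none higher, with 120 genes at an unadjusted p under 0.05.

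**Figure D4:**
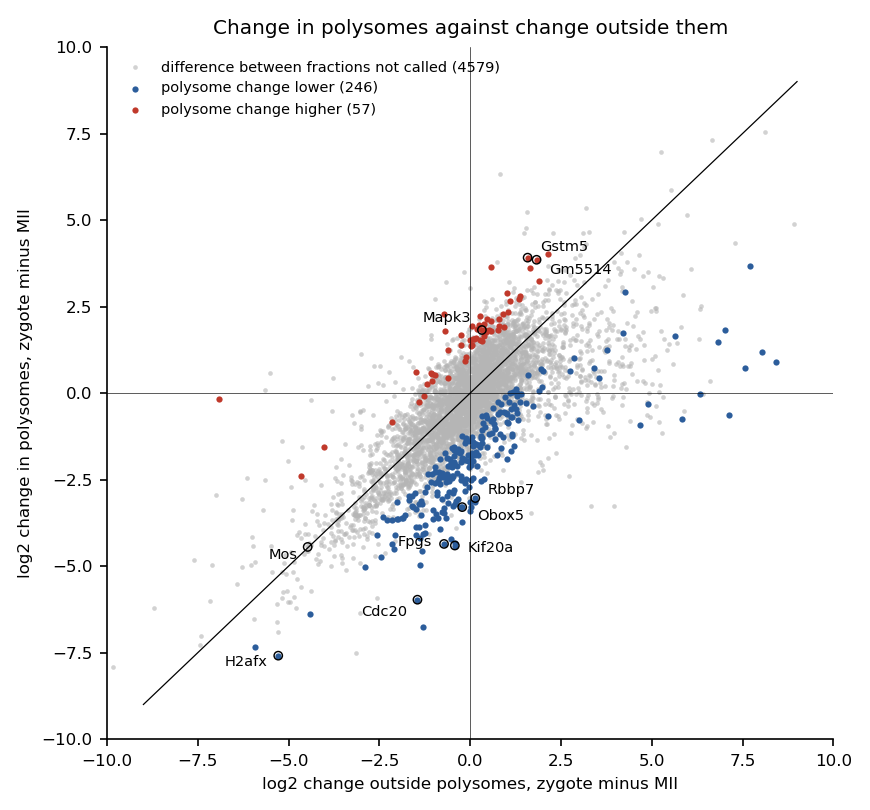
Log2 change from MII to zygote in the non-polysome fraction (horizontal) against that in polysomes (vertical), 1 point a gene over 4882 genes, with called differences coloured. Mos lies near the diagonal (−4.48, −4.45), while Cdc20 (−1.45, −5.97) and Obox5 (−0.22, −3.30) lie well below it.

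The share of genes with a CPE was highest among those that fell in polysomes beyond their change outside. A CPE (TTTTAT or TTTTAAT, transcript strand) was sought in the last 100 bases of the annotated 3′ UTR, in transcripts whose UTR was at least that long. It was present in 60 of 149 genes lower in polysomes with a lower difference (40.3%) and in 144 of 774 lower without one (18.6%). All tested genes held it in 18.1% (661 of 3655), genes not called in polysomes in 16.9%, genes higher in polysomes in 16.2% and all 19589 GENCODE genes of sufficient UTR in 17.9%. These shares are a description with no test. With genes divided into 4 classes of 3′ UTR length, the shares in the shortest were 47.1% and 12.6%, in the second 38.1% and 26.5%, in the third 45.9% and 22%, and in the longest 20% and 14.5%, where the first of the pair rests on 15 genes. Cdc20, Bub1b, Fpgs, Mcm2 and Omt2a, whose sites are printed above, all fell in polysomes, but of these only Cdc20 and Fpgs carried a called difference. Cdc20 is not among the genes counted, since its annotated 3′ UTR of 62 bases is below the length required, and Gdf9, Wee2 and Aurkb hold the same letters and were not called lower. No match in this window says only that these letters are not there.

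**Figure D5:**
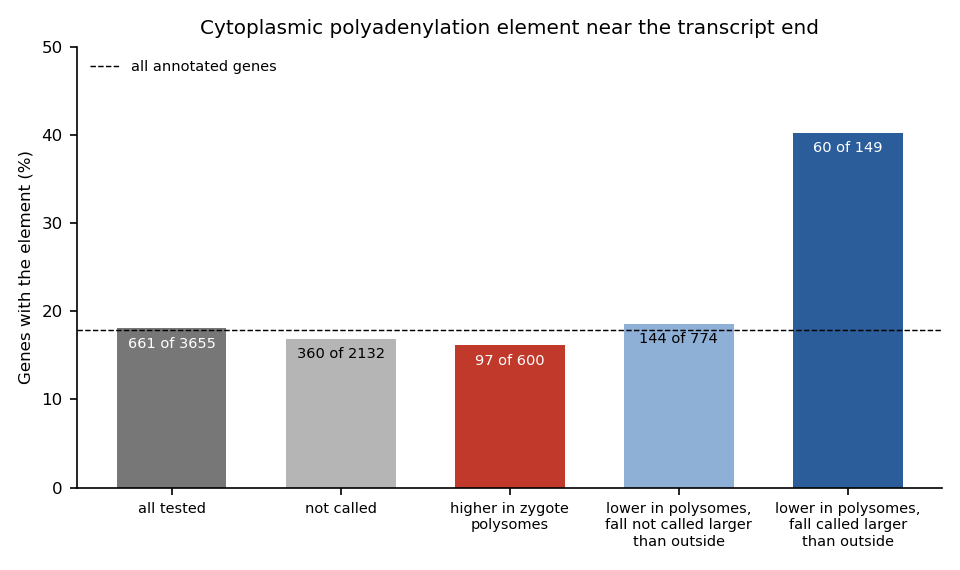
Percent of genes with a cytoplasmic polyadenylation element in the last 100 bases of the 3′ UTR, by call in polysomes and in the difference between fractions, with the axis from 0. The bar of genes lower in polysomes with a lower difference stands at 40.3% and that of all tested genes at 18.1%.

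Transcripts that fell and those that rose also differed in length. Genes lower in the zygote had a median transcript of 1623 bases with a 3′ UTR of 316 bases and 55.1% GC, and genes higher a median of 2667 bases with a 3′ UTR of 1074 bases and 51.3% GC. Over all tested genes with an annotated transcript the medians were 2113 bases, 642 bases and 52.9% GC. The part of length and base composition in the changes was not tested.

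Levels at the GV stage, before maturation, are set beside these values as a description, since they share the MII libraries with any comparison of maturation. Cdc20 was at 4.48 to 5.85 FPKM in GV polysomes, 130 to 157 in MII and 1.65 to 3.37 in zygote, and Obox5 at 4.20 to 6.99, 40.4 to 66.6 and 5.05 to 6.05. H2afx was at 5.04 to 30.4 FPKM in GV. These genes were thus high in MII alone among the 3 stages. Mos (478 to 837 FPKM), H1foo (544 to 1143), Zp1 (160 to 380) and Khdc3 (256 to 464) were already abundant in GV polysomes. Among genes that rose, Pebp1 (42.5 to 105 FPKM in GV), Swi5 (35.3 to 44), Gstm5 (154 to 245), Ldhb (242 to 312), Bmp15 (125 to 305), Mapk3 (201 to 489), Pttg1 (367 to 1028) and Ooep (2497 to 3758) were higher in GV than in MII. Eif4e1b (9.06 to 21.4 FPKM) and Cdc25b (5.51 to 8.8) were highest in zygote of the 3 stages.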

How the data were processed

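Per the labels and the study's methods, libraries were made from gradient-fractionated RNA with SMART-seq v4 and Nextera XT and sequenced as paired reads. According to the submitters' processing notes, reads were trimmed with Trim Galore (0.4.1) and aligned with STAR (2.5.3a) to GRCm38. The authors deposited 1 table of normalized FPKM values for 23125 genes, with 0.01 as the lowest value. Whether strand was used is not given in the sources used here. Of 38 samples 36 have a column, and 2 zygote samples (replicate A) were not analysed here. FPKM is relative within a library, so a rise of some genes lowers the others.

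Deposited FPKM values were log2-transformed without an added constant and tested with limma (3.58.1, R 4.3.3; trended variance, two-sided, Benjamini-Hochberg adjustment) over the 6 polysome libraries, for the 4882 genes averaging 1 FPKM or more. A gene was called at an adjusted p below 0.05 and a change over 2-fold. The same genes were tested in the 6 non-polysome libraries, and the difference of the changes over all 12. The procedure was run on simulated data, and no result of that run is given here. Depth was estimated from FPKM steps of 3490 single-exon genes (66.5% to 70.4% of low values within 0.05 fragments of a whole number in these 6 libraries), so precision is limited by fragments as well as by 3 replicates a group. Genes were named by rule. The rule took the 10 largest rises and falls, up to 3 called members per list and direction, a fixed set of oocyte genes, and the most extreme differences between fractions. The 10 largest changes were ranked among called protein-coding genes averaging 10 FPKM or more whose groups did not overlap. Further list members are named as examples chosen after their values were seen. The comparison, gene lists and genes were chosen with earlier results of these data known, and no list was tested as a set. Of 149 named genes found in GENCODE 33 overlap another protein-coding gene. Beside Kif20a and Polr2c they include Npm2 (with Xpo7 over 4999 bases), Cdt1 (Gm20388, 5540), Rps10 (RPS10-NUDT3, 4805) and Khdc3 (Gm20509, 1969), all on the same strand. Trim28 (Zbtb45, 6137 bases) and Rpl35 (Wdr38, 4045) overlap genes on the opposite strand. Promoter sequences were from RefSeq (GRCm38.p6). Alternatives covered the libraries in the fit, added constants, filters, scalings, weights, a replicate block and leaving out each library. Some genes that the rule names are not reported here.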

Additional observations from a re-analysis of the deposited data

Results flagged for a closer look

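The genes chosen by the naming rule that changed by different amounts in the 2 fractions, by limma's test of the difference itself (adjusted p below 0.05, 6 libraries a fraction), are given here as the log2 change in polysomes minus that outside them. A lower change in polysomes was found for Cdc20 (−4.52), Kif20a (−3.98), Psmd3 (−3.91), D6Ertd527e (−3.69), Fpgs (−3.64), Stoml2 (−3.60), Rbbp7 (−3.17), Obox5 (−3.08), Psmb3 (−2.79), Polr2c (−2.70), Mad2l1bp (−2.54), H2afx (−2.30), Tcl1b1 (−2.17), Psmb6 (−2.13), Fbxl6 (−1.97), Gmnn (−1.97), Mrpl2 (−1.67), H1foo (−1.51), Cks2 (−1.44), Gstt2 (−1.42) and Pkmyt1 (−1.32). A higher change in polysomes was found for E330017A01Rik (2.45), Gstm5 (2.33), Gm5514 (2.02), Ldhb (1.95), Gm32983 (1.91), Swi5 (1.87), Ndufa4 (1.56), Mapk3 (1.5), Zfp57 (1.39), Nfya (1.39), Bmp15 (1.36), Skp1a (1.35), Birc5 (1.25), Anapc11 (1.18) and Eif1b (1.0). E330017A01Rik fell in both fractions, by 1.56 in polysomes and 4.01 outside them, so that its difference is positive. With the replicate letter within a stage as a block, 27 of these 36 differences were called, and those of Anapc11, Cks2, Gm32983, Gmnn, Gstt2, Ndufa4, Nfya, Pkmyt1 and Skp1a were not (adjusted p of 0.0602 to 0.105).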

How the results depend on the processing

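Counts of calls depended most on the libraries that set the spread. In polysomes 77 genes were higher and 283 lower with all 36 libraries, and 153 and 472 with the 18 polysome libraries. A minimum mean of 10 FPKM, which tests fewer genes, gave 213 and 550, and quantile normalization 1213 higher. Leaving out 1 library gave 698 to 863 higher and 1314 to 1378 lower. Outside polysomes the counts were 66 higher and 152 lower with 36 libraries, 177 and 393 at 10 FPKM, and 218 to 434 higher without 1 library. The difference between fractions gave 0 higher (limma; 120 genes at an unadjusted p under 0.05) and 3 lower with 36 libraries. Without a filter these were 87 and 161, after quantile normalization 154 higher and after centring 158 lower. Without 1 library they were 19 to 79 higher and 117 to 285 lower, fewest without zygote polysome D (19 higher) and zygote polysome C (117 lower). Where no construction of the alternative shows it, the cause was not tested.

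The replicate letters did not pair MII with zygote, since deviations of same-lettered polysome libraries correlated at 0.0011 (B) and −0.066 (C). With the letter as a replicate block 758 genes were higher and 1376 lower in polysomes, and 76 and 344 outside them. Between polysome and non-polysome libraries of 1 stage and letter the correlation was −0.030 to 0.15. Blocking on stage and letter left 32 genes with a higher and 167 with a lower difference.

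Among the genes chosen by the naming rule, direction reversed only in some that were not called. Under quantile normalization the log2 changes were 0.043 for Btg4, 0.15 for Ccnb1, 0.052 for Gdf9, 0.19 for Pcna, 0.34 for Plk1 and 0.047 for Rps6, and under centring 0.066 for Ccnb1, 0.013 for Gdf9, 0.25 for Pcna, 0.27 for Plk1 and 0.0855 for Rps6. Without 1 library they ranged from −0.20 to 0.10 for Pcna, −0.27 to 0.15 for Plk1, −0.59 to 0.076 for Rps6 and −0.16 to 0.37 for Wee2. Of 134 called genes chosen by that rule, 111 were called in every fit of these libraries alone, and 9 lost the call without 1 library.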

Other observations

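Genes of the fixed set that did not reach the minimum of 1 FPKM are given by their polysome values. Cnot7, a deadenylase of the CCR4-NOT complex, had 1.04, 1.61 and 0.451 FPKM in MII A, B and C and 0.682, 0.651 and 0.469 in zygote B, C and D. Its partner Cnot6l ranged from 0.0794 to 0.182 FPKM in MII and from 0.115 to 0.136 in zygote. Orc1, of the origin recognition complex, had 0.820, 1.16 and 0.604 FPKM in MII and 0.611, 0.553 and 0.444 in zygote. Tbpl2, the oocyte TATA-binding paralog, had 0.272, 0.412 and 0.342 FPKM in MII and 0.266, 0.332 and 0.445 in zygote. The groups overlapped in Cnot7, Cnot6l, Orc1 and Tbpl2.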
